A study of Mus musculus with 12 samples.

Results

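The striated-muscle microRNAs were followed through mouse optic nerves taken out of the body, a tissue of myelinated axons, glial cells and blood vessels with no striated muscle of its own. They were taken by name from a microRNA panel as the probes mmu-miR-1, mmu-miR-133a, mmu-miR-133b, mmu-miR-206 and mmu-miR-499, which makes 5 of the 566 mouse miRNA probes. All 5 were on the panel, and 4 of them reached the minimum for testing, mmu-miR-133b being the exception. The panel counts fluorescent barcodes that bind each ligated miRNA, with no amplification, and each sample occupies a lane of its own. All nerves came from male mice of the C57Bl/6 strain, and no genetic change is named for any group. The agent label gave 4 groups of 3 samples: Control, and nerves under oxygen-glucose deprivation (OGD, a model of ischaemia outside the body) given no drug, CX-4945 or MS-275. The drug groups are written OGD+CX-4945 or, for the other drug, OGD+MS-275. CX-4945 inhibits casein kinase 2 and MS-275 inhibits class I histone deacetylases. Both drug groups also received OGD, and no group received a drug alone. The sources used here give no dose, no duration, no age, no order in which drug and OGD came, and no number of nerves or mice behind a sample. Nothing there says that replicates came from separate mice, so p-values measure only the spread between these samples.

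These miRNAs are known as myomiRs, because their genes are switched on in skeletal or cardiac muscle by muscle transcription factors. miR-1 and miR-206 carry the same seed and promote muscle differentiation, whereas miR-133a and miR-133b restrain it and favour proliferation of muscle precursors. miR-206 is typical of skeletal muscle, and miR-499 is made from an intron of a myosin heavy chain gene together with its host transcript. A miRNA finds its targets mainly through its seed, bases 2 to 8 from the 5′ end.

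The mature sequences of the members that RefSeq (build GRCm38.p6) gave here are printed with the seed in capitals, to show which of them could share targets. The panel names carry no arm, so the strand shown is the one that the plain name usually stands for. The muscle-related miR-208a and miR-208b follow for their closeness to miR-499.
mmu-miR-206-3p: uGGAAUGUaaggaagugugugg
mmu-miR-133b-3p: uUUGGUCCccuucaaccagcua
mmu-miR-499-5p: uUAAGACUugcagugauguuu
mmu-miR-208a-3p: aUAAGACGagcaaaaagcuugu
mmu-miR-208b-3p: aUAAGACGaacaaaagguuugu
The seeds of miR-206, miR-133b and miR-499 differ from each other, and no pair of them has more than 3 of the 7 seed positions equal. miR-499 and miR-208a have equal bases at 6 of 7 seed positions, and miR-208a and miR-208b at all 7. The seed of miR-499 occurs in 1 of the 1738 mature mouse miRNAs in the RefSeq set used, miR-499 itself. That set is not complete. Under the seed of miR-206 it holds miR-206, miR-6349 and miR-6382 but not miR-1, which carries the same seed. miR-206 lies at chr1:20679055-20679076 and miR-133b at chr1:20682834-20682855, both on the plus strand and both inside the gene Lincmd1, a muscle long non-coding RNA. Their hairpins are 3686 bases apart. miR-499 lies at chr2:155622893-155622913 on the plus strand, inside Myh7b, a slow myosin heavy chain gene. miR-208a and miR-208b lie inside the cardiac myosin heavy chain genes Myh6 and Myh7, at chr14:54949072-54949093 and chr14:54975710-54975731 on the minus strand.

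The summed counts of oligodendrocyte and vessel miRNAs lay above that of the muscle miRNAs, which were near the panel's background. No reference tissue was measured, so these shares do not test the optic nerve label. The summed count of 4 oligodendrocyte miRNAs (the myelinating glia) made up 7.27 to 9.45% of the miRNA count of a lane, and the glial miR-338-3p alone had raw counts of 12699 to 32812. The sum of 2 endothelial miRNAs took 2.59 to 3.51%, of 2 smooth muscle and pericyte miRNAs 0.303 to 0.597%, and of 3 erythroid miRNAs 0.212 to 0.377%. The 5 muscle miRNAs together took 0.0713 to 0.0983%. After subtraction of the mean of the lane's negative controls from each, they took 0.0330 to 0.0747%. A sum of 4 neuronal miRNAs took 1.96 to 2.57%. The 6 miRNAs of the retina and its pigment epithelium took 1.21 to 1.57%, of which 5 never exceeded the background limit, and only miR-204 did, with raw counts of 3773 to 7336. The 4 leukocyte miRNAs took 0.652 to 0.920% and the 4 of fibroblasts and mesenchyme 0.180 to 0.260%, with 2 of the latter never above the limit. The 7 epithelial miRNAs took 0.0531 to 0.0974%, a range much like that of the muscle miRNAs, and 3 of them never exceeded the limit. Total miRNA counts per lane ran from 255154 to 542933, and between 154 and 224 mouse miRNA probes exceeded the limit of their lane. OGD replicate 2 stood apart with the lowest total, the fewest probes above the limit and the lowest ligation control. The background limit, the mean plus 2 SD of the 8 negative controls of the lane, was lower in Control (32.0 to 33.7 counts) than in OGD (46.1 to 53.7), with OGD+CX-4945 at 47.5 to 60.6 and OGD+MS-275 at 38.7 to 51.6.

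miR-499, the slow-muscle and cardiac member, was the only member above the limit in all 12 lanes. Its raw counts were 121, 119 and 112 in Control, 140, 79 and 108 in OGD, 126, 85 and 129 in OGD+CX-4945, and 158, 106 and 106 in OGD+MS-275. The 4 groups overlapped, with the highest count in an OGD+MS-275 lane and the lowest in OGD replicate 2. Scaled to a common library size by TMM factors, which are set so that most probes stay level, its normalised count was 143 ± 24.5 (SD, n = 3) in Control and 122 ± 7.33 in OGD, then 106 ± 13.2 in OGD+MS-275 and 103 ± 26.3 in OGD+CX-4945. Each neighbouring pair in this order overlapped.

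miR-1, the most abundant miRNA of heart and skeletal muscle, exceeded the limit in 11 of 12 lanes. Its raw counts were 44, 65 and 85 in Control, 73, 28 and 79 in OGD, 61, 72 and 111 in OGD+CX-4945, and 100, 115 and 75 in OGD+MS-275. The count of 28 in OGD replicate 2, with an exact 95% Poisson interval of 18.6 to 40.5 that covers counting error only, lay below that lane's limit of 53.7 and below the 32 of its highest viral probe. At the depth of that lane miR-1 was not distinguishable from background. Normalised counts were 83.8 ± 14.1 in OGD+MS-275, 76.7 ± 16.8 in Control, 71.5 ± 6.97 in OGD+CX-4945 and 65 ± 20.1 in OGD, again with every neighbouring pair overlapping.

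miR-206, the skeletal member, exceeded the limit in 9 of 12 lanes. Raw counts were 46, 63 and 45 in Control, 59, 48 and 59 in OGD, 52, 48 and 76 in OGD+CX-4945, and 49, 58 and 56 in OGD+MS-275. It stayed below the limit in OGD replicate 2, OGD+CX-4945 replicate 1 and OGD+MS-275 replicate 1 and above it in all 3 Control lanes. Normalised counts were 64.0 ± 10.4 in OGD and 63.0 ± 18.6 in Control, followed by OGD+CX-4945 at 52.2 ± 3.79 and OGD+MS-275 at 48.1 ± 10.4, and each neighbouring pair overlapped.

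miR-133a, the partner of miR-1 in muscle, exceeded the limit in only 4 of 12 lanes: Control replicates 2 and 3, OGD+CX-4945 replicate 3 and OGD+MS-275 replicate 2. Raw counts were 24, 37 and 36 in Control, 39, 34 and 38 in OGD, 40, 35 and 58 in OGD+CX-4945, and 44, 46 and 33 in OGD+MS-275. No OGD lane was above the limit, although the OGD counts were as high as those of Control, because the limit itself was higher there. Its highest normalised count, 53.2, came from OGD replicate 2, where the raw count of 34 was below the limit. Group means were 43.2 ± 8.98 in OGD, 39.4 ± 3.94 in OGD+CX-4945, 39.0 ± 8.92 in Control and 35.6 ± 3.89 in OGD+MS-275, with no neighbours apart.

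miR-133b, which is encoded beside miR-206, was at background in every lane. Its raw counts were 9, 13 and 12 in Control, 6, 18 and 14 in OGD, 14, 16 and 13 in OGD+CX-4945, and 19, 10 and 16 in OGD+MS-275. None exceeded the limit in 12 lanes, so no fold change was computed. Among all 566 mouse probes ordered by raw count, the median rank over lanes was 135.5 for miR-499, 166 for miR-1, 183.5 for miR-206, 206.5 for miR-133a and 347.5 for miR-133b. Probes differ in how well they capture their targets, so these ranks place the signals within the panel and do not give the relative amounts of the miRNAs.

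**Figure D1:**
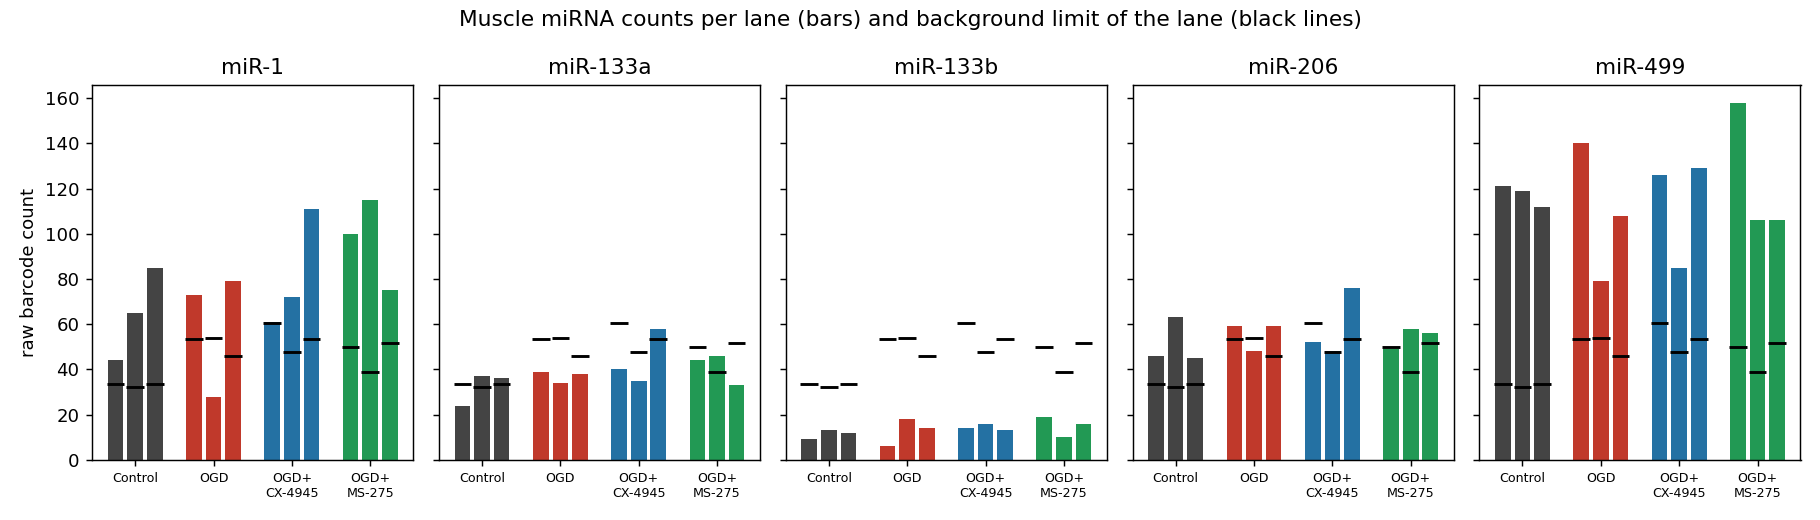
Raw barcode counts (vertical axis) of the 5 muscle miRNAs in each of the 12 lanes, coloured by group, with the background limit of each lane as a black line. miR-499 clears the line in all 12 lanes and miR-133b in none, and the bars of the 4 groups overlap for each miRNA.

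The comparison of OGD with Control asked whether ischaemia-like stress alone moved the muscle miRNAs, and 0 of the 4 tested members passed edgeR's quasi-likelihood test with Benjamini-Hochberg adjustment over all 217 tested probes at 0.05. That test called 0% of the 217 probes, with 12 at an unadjusted p under 0.05, none of them a member. limma-voom also called 0 members, here and in the 4 other comparisons of 2 groups. DESeq2 called 0 members too, but in OGD+MS-275 against OGD it gave no adjusted p for any of them. Its unadjusted p there ran from 0.094 for miR-206 to 0.275 for miR-133a. The log2 difference, OGD over Control, was -0.22 (SE 0.23) for miR-1 and -0.22 (SE 0.19) for miR-499, 0.12 (SE 0.23) for miR-133a and 0.02 (SE 0.23) for miR-206. The edgeR adjusted p was 0.937 for miR-1, miR-133a and miR-499 and 0.982 for miR-206. For no member did the 3 OGD lanes lie wholly above or below the 3 Control lanes, which was so for 13.8% of all tested probes. The median log2 difference was -0.10 over the 4 members and 0.01 over all tested probes. Without OGD replicate 2, where miR-1 was at background, the miR-1 difference was -0.03.

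The comparison of each drug group with OGD asked what the drug added to OGD. With CX-4945, edgeR called 0 of 4 members and 0% of all probes, 16 of which had an unadjusted p under 0.05. The log2 differences, OGD+CX-4945 over OGD, were 0.12 (SE 0.22) for miR-1, -0.10 (SE 0.22) for miR-133a, -0.28 (SE 0.23) for miR-206 and -0.26 (SE 0.19) for miR-499. Their edgeR adjusted p-values were 0.883, 0.886, 0.802 and 0.746 in that order. No member had groups that did not overlap, against 6.45% of all tested probes. The miR-1 difference turned to -0.07 without OGD replicate 2.

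With MS-275, edgeR again called 0 of 4 members, against 0.461% of all probes (1 of 217), while 45 had an unadjusted p under 0.05. miR-1 was the only member with a higher mean than in OGD, by 0.34 on the log2 scale (SE 0.22, edgeR adjusted p = 0.340). The fold of 1.27 had a 95% interval of 0.917 to 1.75, and without OGD replicate 2 the log2 difference was 0.15. miR-206 had the lowest ratio, a log2 difference of -0.41 (SE 0.23, edgeR adjusted p = 0.288) with a fold of 0.755 and an interval of 0.538 to 1.06. Without OGD+MS-275 replicate 1 it was -0.24, and miR-499 was then lowest at -0.29. miR-133a and miR-499 differed by -0.25 (SE 0.22) and -0.20 (SE 0.19), with edgeR adjusted p of 0.512 and 0.522. The lanes overlapped for all 4, although 24% of all tested probes (52 of 217) did not overlap in this comparison.

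The drug groups were also set against Control, with the same Control lanes as in the OGD comparison. miR-499 had the lowest ratio of the members in both. In OGD+CX-4945 its log2 difference from Control was -0.47 (SE 0.19), a fold of 0.720 with an interval of 0.546 to 0.948, and it did not pass after adjustment (edgeR adjusted p = 0.406). Normalised counts were 158, 157 and 115 in Control and 133, 84.7 and 91.1 in OGD+CX-4945, so Control replicate 3 lay below a treated lane. In OGD+MS-275 the log2 difference of miR-499 was -0.42 (SE 0.19), a fold of 0.747 with an interval of 0.568 to 0.982 (edgeR adjusted p = 0.179), and the treated lanes read 118, 92.2 and 108. The lowest Control lane again lay below the highest treated lane.

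The other members differed less from Control. For OGD+CX-4945 the log2 differences were -0.10 (SE 0.22) for miR-1, 0.02 (SE 0.22) for miR-133a and -0.26 (SE 0.23) for miR-206, with edgeR adjusted p from 0.830 to 0.996. For OGD+MS-275 they were 0.12 (SE 0.22), -0.13 (SE 0.23) and -0.39 (SE 0.23), with adjusted p of 0.810, 0.810 and 0.328. The test called 0% of all probes for CX-4945 against Control and 1.38% for MS-275 against Control, and the groups did not overlap for 7.83% and 28.6%. Members contributed 0 to each of these counts. Of the 217 probes, 18 and 50 had an unadjusted p under 0.05, miR-499 among them in both comparisons. An edgeR test for any difference among the 4 groups called 0.461% of the probes and no member, with adjusted p of 0.376 for miR-499, 0.584 for miR-206, 0.769 for miR-1 and 0.914 for miR-133a.

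A p-value over the threshold does not show that the levels were alike, so the intervals matter. All 20 of the 95% intervals, 4 members in 5 comparisons, lay within 2-fold either way, as the plot of fold changes shows. So did those of 87.1 to 94.5% of all tested probes, depending on the comparison. When the mean of the negative controls was first subtracted from each lane, only 5 of 20 did, against 62.2 to 75.1% of all tested probes. The raw counts contain a background that pulls fold changes towards 1, so the narrower intervals hold for the counts as read and not for the miRNA above background.

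**Figure D2:**
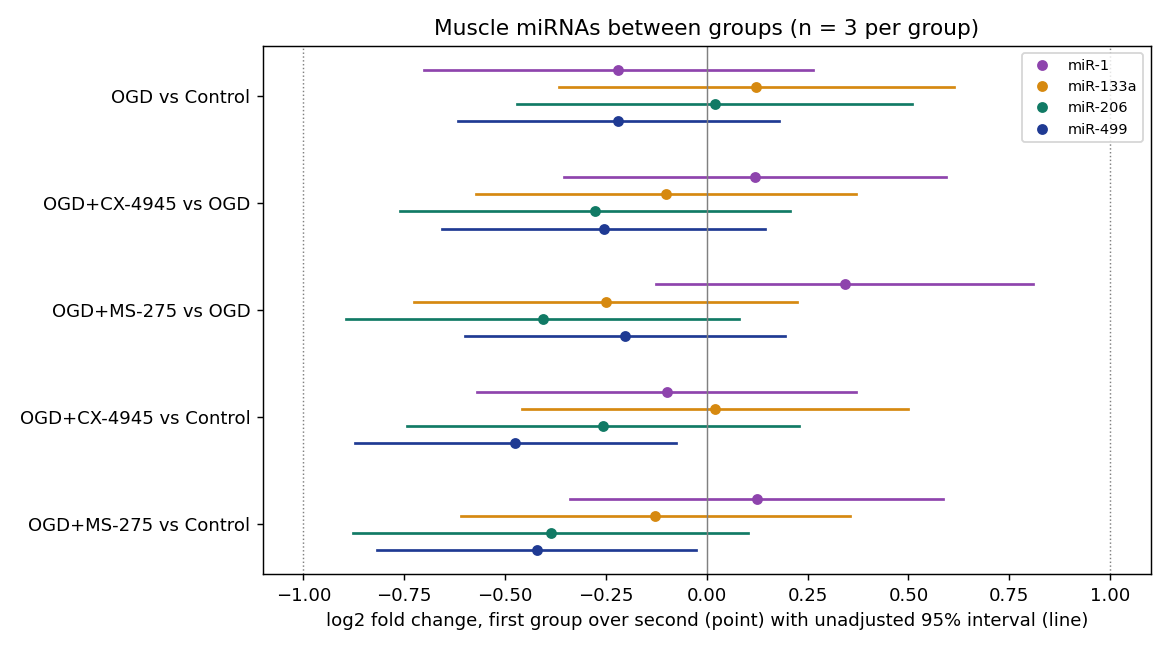
Log2 fold change of each tested muscle miRNA in 5 comparisons (points) with its unadjusted 95% interval (lines), n = 3 lanes per group, and dotted lines at a 2-fold difference. All intervals end inside the dotted lines, and those of miR-499 against Control with either drug are the only intervals that end short of 0.

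In muscle miR-1 is made from the same transcripts as miR-133a, so the members' counts were compared lane by lane. Pearson's r over the 12 lanes, on log2 normalised counts, was -0.20 between miR-1 and miR-133a, -0.31 between miR-1 and miR-206, and -0.37 between miR-1 and miR-499. None of the 3 passed the permutation test, with unadjusted two-sided p of 0.535, 0.318 and 0.242 and Spearman's rho of 0.0979, -0.25 and -0.43. The highest value was that of miR-133a with miR-206, r = 0.689 (permutation p = 0.0141, adjusted p = 0.0516 over the 22 relations computed). Its rho was 0.483 (permutation p = 0.115), and r fell to 0.247 without the 2 lanes farthest from the median, so this r leaned on those lanes. With group means removed r was 0.665 and rho 0.692 (permutation test, adjusted p = 0.0808 and 0.187), and r was 0.375 without the 2 farthest lanes. Without OGD replicate 2 r was 0.591 and rho 0.336. miR-133a with miR-499 gave r = 0.132 (rho 0.0839) and miR-206 with miR-499 gave r = 0.481 (rho 0.497), with permutation p of 0.680 and 0.111. These values depended on the scaling. When counts were divided by the positive ligation controls of the lane, r was 0.906 for miR-133a with miR-206 and 0.385 for miR-1 with miR-133a, and when divided by the mRNA probes it was 0.565 and 0.871. Both members of a pair then share a divisor, which can itself raise r, so these values alone do not show co-variation. The ligation-scaled counts gave r with the ligation controls of -0.92 for miR-206, -0.88 for miR-499, -0.84 for miR-133a and -0.22 for miR-1.

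Ratios of members within a lane need no scaling. Those of miR-1, miR-206 and miR-499, which exceeded the limit in at least 2 of 3 lanes of each group, were tested in 15 exact permutation tests, each two-sided with a smallest possible p of 0.10. miR-1 over miR-206 in raw counts was 0.957, 1.03 and 1.89 in Control, 1.24, 0.583 and 1.34 in OGD, 1.17, 1.5 and 1.46 in OGD+CX-4945, and 2.04, 1.98 and 1.34 in OGD+MS-275. All 3 OGD+MS-275 lanes lay at or above the highest OGD lane, and a Control lane lay among them. On the log2 scale the ratio was 0.81 ± 0.34 (SD, n = 3) in OGD+MS-275 and -0.02 ± 0.66 in OGD, a difference of 0.83 with exact permutation p = 0.1 and adjusted p = 0.5625. In OGD replicate 2 both miRNAs were below the limit, and miR-1 was not distinguishable from background. miR-206 there, at 48 counts, still exceeded the 32 of the highest viral probe. Without this lane the difference was 0.45. After background subtraction, with this lane kept, the difference was 1.98. miR-1 in OGD replicate 2 was then only 1.75 counts above the mean of the negative controls, so the ratio of that lane is poorly determined. The other 14 tests gave higher p-values, and none passed.

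The positive ligation controls measure how well the tags were joined to the miRNAs of a lane, and they were higher in the OGD+MS-275 lanes (geometric mean count 2914 to 3155) than in any OGD lane (1109 to 2423). Control lanes read 1386 to 2369 and OGD+CX-4945 lanes 1667 to 3787. Against them, normalised counts gave r above 0 for miR-1 and below 0 for the other 3 tested members, whereas on raw counts and with scaling by the mRNA probes r was above 0 for all 4. No relation on normalised counts passed after adjustment over the 22 computed (lowest adjusted p 0.0516). The normalised count of miR-1 gave r = 0.668 (rho 0.517, permutation p = 0.0135 and 0.0903), and r was 0.258 without the 2 farthest lanes, so this r leaned on these lanes. miR-499 gave r = -0.79 (rho -0.78, permutation p = 0.00268 and 0.00451), with r = -0.84 without the 2 farthest lanes. Without OGD replicate 2, an alternative added after seeing the data, r of miR-499 was -0.88 and passed (permutation test, adjusted p = 0.0128). Its rho there did not pass (-0.80, adjusted p = 0.103). miR-206 gave r = -0.69 and rho -0.66 (permutation p = 0.0118 and 0.0221), with -0.60 without the 2 farthest lanes, and miR-133a gave r = -0.45 and rho -0.31 (permutation p = 0.143 and 0.329). With group means removed r was 0.719 for miR-1, -0.71 for miR-499, -0.49 for miR-206 and -0.37 for miR-133a, and no permutation test passed after adjustment (lowest adjusted p 0.0674). Without the 2 farthest lanes these r were 0.596, -0.65, -0.43 and -0.042 in the same order.

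On raw counts miR-1 rose with the ligation controls (r = 0.878, rho 0.888, permutation p = 3.0e-05, adjusted p = 6.6e-04, and r = 0.799 without the 2 farthest lanes), whereas miR-499 did not (r = 0.235, permutation p = 0.462). With the total miRNA count of the lane, raw miR-1 gave r = 0.876 (permutation test, adjusted p = 0.00121). Raw miR-499 gave r = 0.602 (adjusted p = 0.116). Lane depth and ligation signal were not separated on raw counts. With the ligation signal as a covariate, the log2 difference of OGD+MS-275 from OGD was -0.0036 for miR-1 in place of 0.34, and that of OGD+MS-275 from Control was -0.09 for miR-499 in place of -0.42. All 3 OGD+MS-275 lanes had more ligation signal than every OGD lane and every Control lane, so ligation signal and MS-275 cannot be told apart in either comparison, and the covariate does not separate them.

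**Figure D3:**
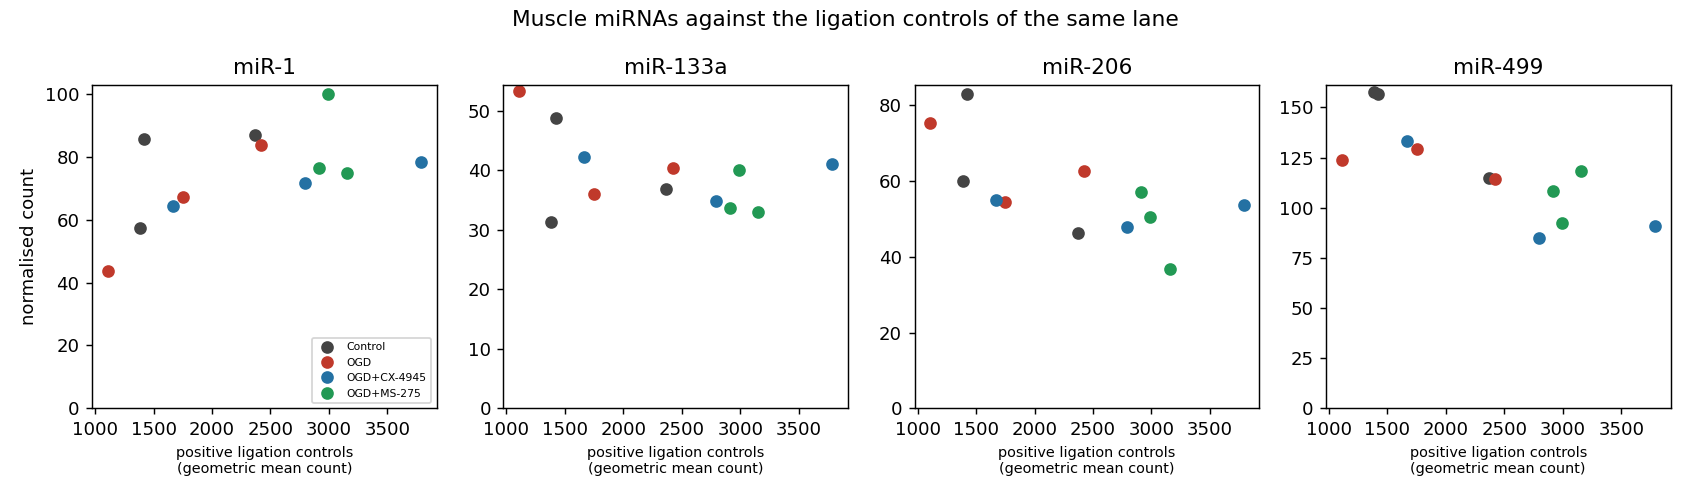
Normalised count of each tested muscle miRNA (vertical axis) against the geometric mean count of the positive ligation controls of the same lane (horizontal axis), with 1 point per lane coloured by group. miR-1 is lowest in the lane with the least ligation signal, miR-499 lies lower towards the right, and the 3 OGD+MS-275 lanes sit between 2914 and 3155 on the horizontal axis.

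For each tested member the 3 probes outside the set with the most similar course over the 12 lanes were named by Pearson's r of log2 normalised counts among 213 probes, as a description with no test. Every value shares the lanes, their scaling and their ligation signal. miR-1 was most like miR-143 (r = 0.881), a smooth muscle miRNA, and then miR-30b (0.820) and miR-30d (0.804). The likeness to miR-143 was 0.853 with group means removed and 0.902 as Spearman's rho. miR-143 had normalised counts of 251, 495 and 398 in Control, 288, 249 and 352 in OGD, 281, 354 and 387 in OGD+CX-4945, and 363, 476 and 323 in OGD+MS-275. Within OGD and within OGD+CX-4945 the lanes took the same order for both miRNAs, whereas Control replicates 2 and 3 and OGD+MS-275 replicates 1 and 3 exchanged places.

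The other muscle miRNAs ranked far lower in likeness to miR-1, with miR-133a at place 137, miR-206 at 151 and miR-499 at 155. These places hold for TMM-scaled counts with the background left in. After background subtraction Spearman's rho of miR-1 with miR-133a was 0.804 (permutation p = 0.00259, adjusted p = 0.057). With miR-206 it was 0.210 and with miR-499 -0.20. miR-499 was most like miR-126-3p (r = 0.862), which is typical of endothelium, and then miR-15a (0.848) and miR-25 (0.811). With group means removed the likeness to miR-126-3p was 0.858. The group means of miR-126-3p were lowest with a drug, as for miR-499: 9538 ± 168 in OGD+MS-275 and 10358 ± 1697 in OGD+CX-4945. Without a drug they were 11960 ± 1042 in OGD and 12207 ± 1340 in Control. miR-126-5p, the other endothelial miRNA, did not share this order and was lowest in OGD (415 ± 74.4). Its mean was 425 ± 63.0 with CX-4945, 446 ± 62.7 with MS-275 and 473 ± 69.4 in Control, and these ranges overlapped. miR-206 was most like miR-674 (r = 0.840), miR-150 (0.792), a lymphocyte miRNA, and miR-30c (0.792). miR-133a was most like miR-1960 (0.727), miR-23a (0.695) and miR-151-5p (0.681), and among members only miR-206 came near these, at place 3 for miR-133a. In bulk samples fewer cells of a type and less of a miRNA per cell cannot be told apart, and the part of vessel content in these values was not tested. The summed share of the 2 smooth muscle and pericyte miRNAs, miR-143 and miR-145, was 0.310 to 0.597% in Control, 0.303 to 0.379% in OGD, 0.316 to 0.420% in OGD+CX-4945 and 0.419 to 0.502% in OGD+MS-275.

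**Figure D4:**
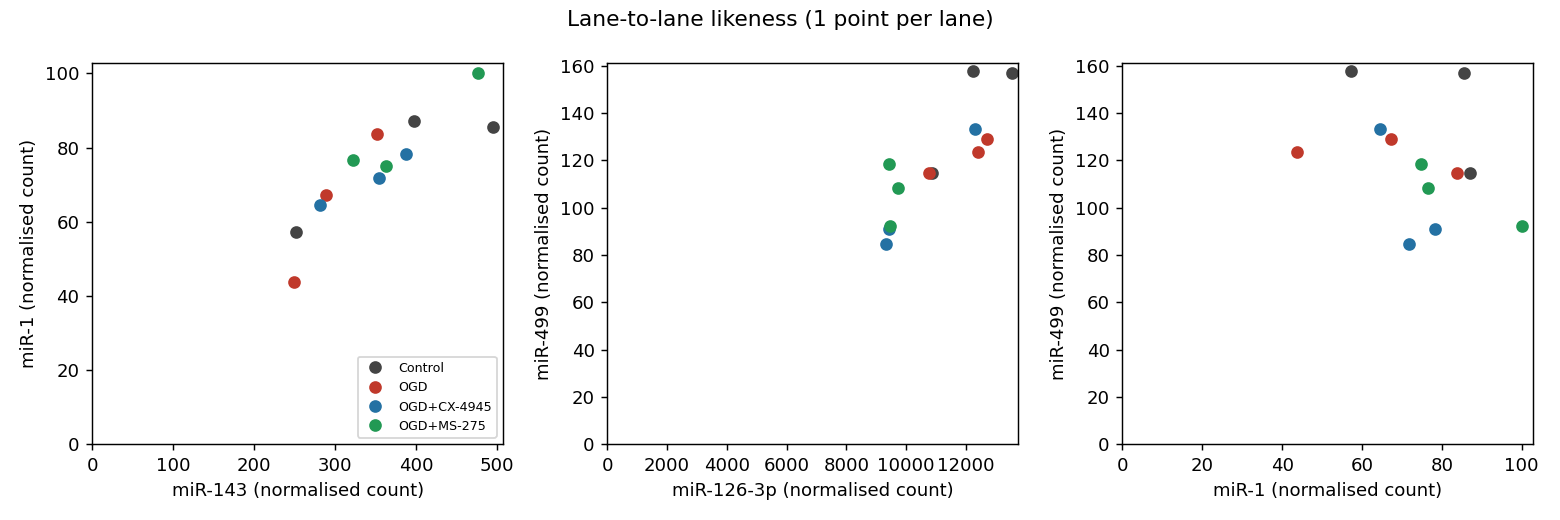
Normalised counts in the 12 lanes, coloured by group, of miR-1 against miR-143 (left), miR-499 against miR-126-3p (middle) and miR-499 against miR-1 (right). The points rise together in the left and middle panels (r = 0.881 and 0.862) and show no such course in the right panel (r = -0.37).

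Members differed in their scatter between replicate lanes. The SD within groups, in log2 units, was 0.323 for miR-1, 0.298 for miR-206, 0.242 for miR-133a and 0.241 for miR-499. The median was 0.235 over the 217 tested probes, and the upper quartile was 0.295 over those outside the muscle set. miR-1 and miR-206 lay above that quartile, and miR-133a and miR-499 near the median. Ordered from the most scattered, they took places 36, 54, 102 and 105. The median among tested probes of similar mean count was 0.254, 0.258, 0.282 and 0.227 in the same order. For miR-133a the variance between replicate lanes was 0.986 times that expected from counting error alone, so its spread was no wider than that of counting. The same ratio was 2.28 for miR-206, 2.74 for miR-1 and 3.27 for miR-499, against a median of 4.58 over tested probes. Without OGD replicate 2, miR-1 took place 90.

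**Figure D5:**
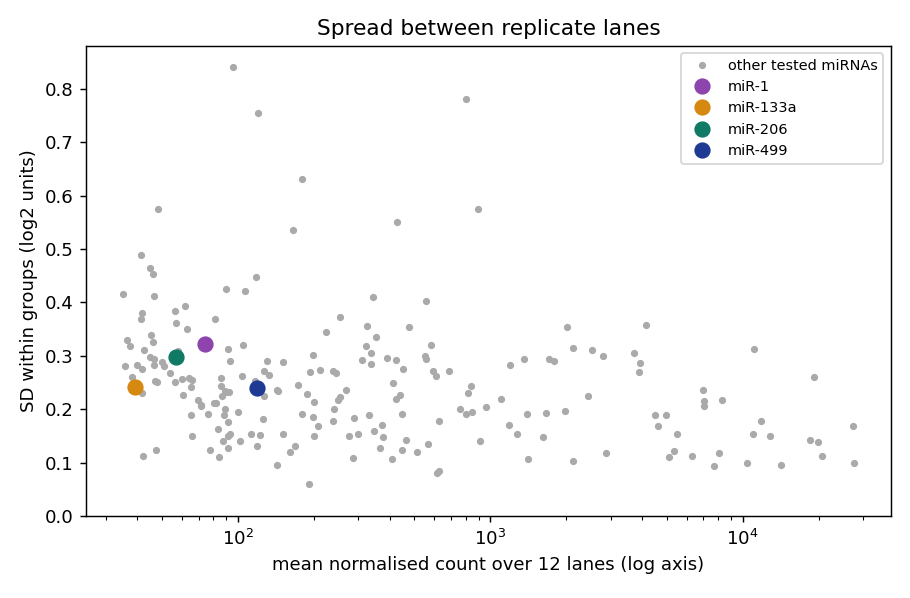
SD between replicate lanes within groups, in log2 units (vertical axis), against the mean normalised count over 12 lanes (horizontal axis, logarithmic) for the 217 tested probes. The 4 muscle miRNAs, in colour, lie between 0.241 and 0.323 and inside the cloud of other tested miRNAs at similar counts.

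A list of 8 further names related to muscle was searched on the panel, and 4 were present. miR-208a and miR-208b, the cardiac relatives of miR-499 whose sequences are given above, had raw counts of 11 to 35 and 2 to 8 and never exceeded the limit. miR-486, abundant in both muscle and red blood cells, had 50 to 126 counts and exceeded it in 11 of 12 lanes. miR-378, which is made from an intron of a metabolic coactivator gene and is present in many tissues, had 174 to 390 counts and exceeded it in all 12. Neither of these 2 tested miRNAs passed edgeR's test in any comparison. The widest log2 differences were 0.25 (SE 0.19, adjusted p = 0.746) for miR-486 in OGD+CX-4945 over OGD and -0.24 (SE 0.15, adjusted p = 0.673) for miR-378 in OGD+CX-4945 over Control.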

How the data were processed

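Per the file headers, the main table holds the deposited raw barcode counts of 1 nCounter lane per sample. The signal values of the series matrix, which the authors deposited with their normalisation not given in the sources used here, served only as an alternative. The table holds 626 named probes, and 1 row without a name was left out. Probes above the lane's limit (mean plus 2 SD of the 8 negative controls) in at least 3 of 12 lanes were tested, 217 in all. They were fitted over all 12 samples with edgeR 4.0.16 in R 4.3.3 (TMM factors, quasi-likelihood test, robust), with Benjamini-Hochberg adjustment over the 217. The common biological coefficient of variation was 16.61%. Intervals of folds are unadjusted. Alternatives used limma 3.58.1, DESeq2 1.42.0, other scaling, filters and background subtraction. The fit was tested on simulated data. The text names all members, the related list, and the 3 probes most like each member. Members and lists were chosen with earlier results of these data known, and the 3 members used in ratios after their counts were seen. Replicate numbers follow sample order and are only names. Correlations used 100000 permutations.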

Additional observations from a re-analysis of the deposited data

How the results depend on the processing

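The limit of these data is signal over background: most members were within a few multiples of the limit, and with a limit of the mean plus 3 SD miR-133a exceeded it in 0 lanes and miR-206 in 5. With only probes above the limit in all 12 lanes, miR-499 alone could be tested. Of 365 alternative fold changes, 1 passed the threshold and 54 changed sign, and the cause was not tested. The labels do not say whether the 3 runs of consecutive title numbers are batches. With these 3 sets as a replicate block, miR-499 in OGD+MS-275 against Control had a log2 difference of -0.53 (edgeR adjusted p = 0.0467), so that 1 member was called. Over the other alternatives its adjusted p ran upwards from 0.116. With group means removed, samples of different groups in the same set had a median correlation of 0.306 (-0.61 to 0.557). For those in different sets it was -0.17 (-0.65 to 0.670). Removing group means makes the deviations of a group's lanes cancel out, so these medians are not independent of each other. The log2 difference of miR-499 in OGD+MS-275 against Control ran over the alternatives from -0.83 with ligation scaling to -0.030 with mRNA scaling. In OGD+CX-4945 against Control it ran from -0.69 without OGD+CX-4945 replicate 1 (edgeR adjusted p = 0.0509) to -0.24 with the ligation covariate. Other sign changes follow in log2 units. For OGD against Control, scaling by the mRNA probes gave -0.016 for miR-133a and -0.098 for miR-206, background subtraction -0.20 and -0.14, the deposited signal -0.26 and -0.34, and no filter -0.018 for miR-206. For OGD+CX-4945 against OGD, mRNA scaling gave 0.19 for miR-133a and 0.0095 for miR-206, background subtraction 0.19 for miR-133a, ligation scaling -0.14 and the ligation covariate -0.15 for miR-1 and 0.022 for miR-133a, and the deposited signal 0.46, 0.14 and 0.13 for miR-133a, miR-206 and miR-499. For OGD+MS-275 against OGD, mRNA scaling gave 0.30, 0.11 and 0.28 and the deposited signal 0.48, 0.17 and 0.41 for the same 3, background subtraction 0.081 for miR-133a, ligation scaling -0.067 and the ligation covariate -0.0036 for miR-1 and 0.11 for miR-499. For OGD+CX-4945 against Control, miR-133a was -0.0032 with RLE factors and in DESeq2, -0.19 with ligation scaling and -0.015 with background subtraction, and miR-1 was 0.040 with mRNA scaling and 0.031 with the deposited signal. For OGD+MS-275 against Control, mRNA scaling gave 0.28 for miR-133a and 0.011 for miR-206, ligation scaling -0.24 and the ligation covariate -0.25 for miR-1 and 0.029 for miR-133a, and the deposited signal 0.23 for miR-133a. Leaving out a replicate moved miR-133a from -0.030 to 0.30 and miR-206 from -0.17 to 0.26 in OGD against Control. For OGD+CX-4945 it moved miR-1 from -0.27 to 0.0082 and miR-133a from -0.11 to 0.20 against Control, and from -0.069 to 0.34 and -0.23 to 0.051 against OGD. For OGD+MS-275 against Control it moved them from -0.043 to 0.23 and -0.25 to 0.053. The log2 ratios differed in sign too: without a replicate, miR-1 over miR-206 ran from -0.53 to 0.065 (OGD against Control) and -0.027 to 0.46 (OGD+CX-4945 against Control), miR-1 over miR-499 from -0.33 to 0.21 (OGD against Control), and miR-206 over miR-499 from -0.16 to 0.15 (OGD+CX-4945 against OGD), -0.10 to 0.31 (OGD+MS-275 against Control) and -0.36 to 0.051 (OGD+MS-275 against OGD). Background subtraction gave 0.028 and -0.014 for the first 2 comparisons of that last ratio. Correlations depended most on the scaling. Between miR-1 and miR-133a, miR-206 and miR-499 they were 0.385, 0.337 and 0.477 with ligation scaling, 0.871, 0.701 and 0.619 with mRNA scaling, 0.545, 0.0733 and 0.0997 after background subtraction, and 0.684, 0.466 and 0.491 on raw counts. Ligation scaling gave 0.906 for miR-133a with miR-206, 0.796 for miR-133a with miR-499 and 0.846 for miR-206 with miR-499. With ligation or mRNA scaling both members of a pair share a divisor, which can itself raise r. Between the ligation controls and miR-133a, miR-206 and miR-499 they were 0.664, 0.298 and 0.131 with mRNA scaling and 0.614, 0.347 and 0.235 on raw counts, and 0.320 for miR-133a after background subtraction. Without OGD replicate 2, an alternative added after seeing the data like the raw-count correlations, miR-1 gave 0.486 with miR-133a and 0.0159 with miR-206, and miR-499 gave -0.88 with the ligation controls (permutation test, adjusted p = 0.0128). In the order of spread, ligation scaling put miR-1 at place 157 and miR-499 at 22, and miR-1 took place 90 without OGD replicate 2.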
